A study of Mus musculus with 21 samples.

Results

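The 10 genes described here serve endoplasmic reticulum (ER) protein folding and the integrated stress response, and they were followed across 7 groups of cultured mouse hepatocytes. They were taken by name, not by their values, and all 10 are among the 9657 genes measured: Hspa5, Hsp90b1, Calr, Pdia4, Dnajb9, Herpud1, Xbp1, Atf4, Atf5 and Ddit3. The cells were primary hepatocytes of genotype WT, harvested on Day 1 after PBS (the vehicle control) or 1 of 3 RNAi agents against Ttr, the transthyretin mRNA. The agents are named TTR-1236, TTR-1186 and Reference 4, and each was given at 0.2 µM and at 2 µM, with 3 libraries in each of the 7 groups. The study asked how the backbone chemistry of such agents affects silencing, but the labels do not say which chemistry each agent carries. Age, sex and the number of donor animals are not given, and no source used here tells whether a group's 3 libraries are 3 cultures or animals. The p-values below therefore rest on library-to-library spread alone, part or all of which may be technical.

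Secreted and membrane proteins fold in the ER with the help of chaperones such as BiP, the product of Hspa5. When unfolded proteins build up, the sensors IRE1, PERK and ATF6 raise the transcription of chaperones and of the degradation machinery. PERK, with other eIF2α kinases, also slows general translation while favouring that of ATF4, and this shared branch is the integrated stress response. Hepatocytes secrete most plasma proteins, so they carry a large ER and express these genes without added stress.

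The promoter elements through which ATF6, XBP1 and ATF4 act are short DNA motifs, and the matches near the starts of the 10 genes are printed here. The 4 motifs were searched on both strands in the 250 bases before each RefSeq start (GRCm38.p6), with N standing for any base: the ER stress element ERSE (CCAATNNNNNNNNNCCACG), the related ERSE-II (its letters are the capitals of the Herpud1 line), the core of the XBP1 element UPRE (TGACGTGG) and the ATF4-binding CARE (TGATGNAA). All 10 genes had a RefSeq start, which gave 11 windows because Atf5 has 2 starts. Motifs were found for Hspa5, Hsp90b1, Calr and Herpud1, and the windows of Atf5, Xbp1, Atf4, Ddit3, Pdia4 and Dnajb9 held 0. Capitals mark the motif, and lower case marks its flanks:
Hspa5 ERSE, chr2:34772020-34772048, plus strand: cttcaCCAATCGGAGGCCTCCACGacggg
Hsp90b1 ERSE, chr10:86705633-86705661, minus strand: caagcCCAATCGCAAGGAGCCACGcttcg
Hsp90b1 second ERSE (motif on the other strand), chr10:86705528-86705556, minus strand: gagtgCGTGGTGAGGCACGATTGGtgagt
Calr ERSE (motif on the other strand), chr8:84847070-84847098, minus strand: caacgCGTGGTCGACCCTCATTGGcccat
Herpud1 ERSE-II, chr8:94386372-94386392, plus strand: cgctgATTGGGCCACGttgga
Herpud1 CARE (motif on the other strand), chr8:94386312-94386329, plus strand: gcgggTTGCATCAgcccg
An ERSE was found in 0.113% of all 32851 windows and in 3 of the 11 windows here, those of 3 genes. ERSE-II was found in 0.0304% of windows and in 1 gene, CARE in 3.45% of windows and in 1 gene, and the UPRE core in 0.563% of windows and in 0 of these genes. The RefSeq start of Hspa5 lies inside the Ensembl gene span given below, so its ERSE does too. Motifs and genes were both chosen as known parts of these stress responses, so the counts beside the shares are no test. A match is a description of these letters and not a site of binding or a cause of any value below.

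Levels are CPM, a gene's reads divided by the reads of its library and scaled to a total of 1000000, from QuantSeq libraries, in which reads come from the 3′ end of each mRNA. Libraries held 14158740 to 37410773 reads over the measured genes. Ttr stood at 0.141% to 1.20% of its PBS mean in the 18 treated libraries. Of 9 hepatocyte markers 8 were measured, and they summed to 13679.5 to 21703 CPM. PBS replicate 3 stood apart from the other PBS libraries: the mitochondrial ribosomal RNAs mt-Rnr1 and mt-Rnr2 took 0.797% of its CPM, against 3.26% and 2.70% in replicates 1 and 2. This share was 0.278% to 0.487% with TTR-1236 at 2 µM and 0.383% to 1.10% with Reference 4 at 2 µM, 1.47% to 3.73% in the 0.2 µM libraries and 0.622% to 2.21% with TTR-1186 at 2 µM. TTR-1186 2 µM replicate 2 also stood apart: 109 genes had no read in it, against 0 to 29 in the other libraries, and it had the lowest hepatocyte marker sum. Results against PBS are given with and without PBS replicate 3 where it changes a call. In bulk RNA, fewer cells of a type and less RNA per cell cannot be told apart.

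Against PBS, 2 of the 10 genes passed the test, and both did so at 2 µM of TTR-1236 and at 2 µM of Reference 4: Hspa5 and Atf5 fell. A gene was called where its Benjamini-Hochberg adjusted p over all 9657 genes was under 0.05 in limma on log2(CPM + 1), and every fold change below is a log2 difference on that scale with its standard error. Of all genes, 6.33% were called with TTR-1236 at 2 µM and 2.25% with Reference 4 at 2 µM, and 4.89% and 1.66% were called lower. These backgrounds moved with single libraries: the 611 genes called with TTR-1236 at 2 µM became 49 and 46 without PBS replicates 1 and 2, 1588 without PBS replicate 3, and 206 and 63 without that group's replicates 2 and 3. The 217 genes called with Reference 4 at 2 µM became 6 and 9 without PBS replicates 1 and 2, 1272 without PBS replicate 3, and 66, 98 and 10 without that group's replicates 1, 2 and 3. With TTR-1186 at 2 µM, 0 of the 10 genes were called, where 0.0518% of all genes were. At 0.2 µM, 0 of the 10 were called with TTR-1236, TTR-1186 or Reference 4, where 0.0207%, 0.0311% and 0.166% of all genes were. At an unadjusted p under 0.05 limma had 3, 2 and 3 of the 10 genes at 0.2 µM in that order and 1 with TTR-1186 at 2 µM, and edgeR and DESeq2 called 0 in these 4 comparisons. Of all 9657 genes, 665, 928, 1426 and 890 had such a p in the same order. The 6 comparisons share their PBS libraries, so they are not independent of each other.

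**Figure D1:**
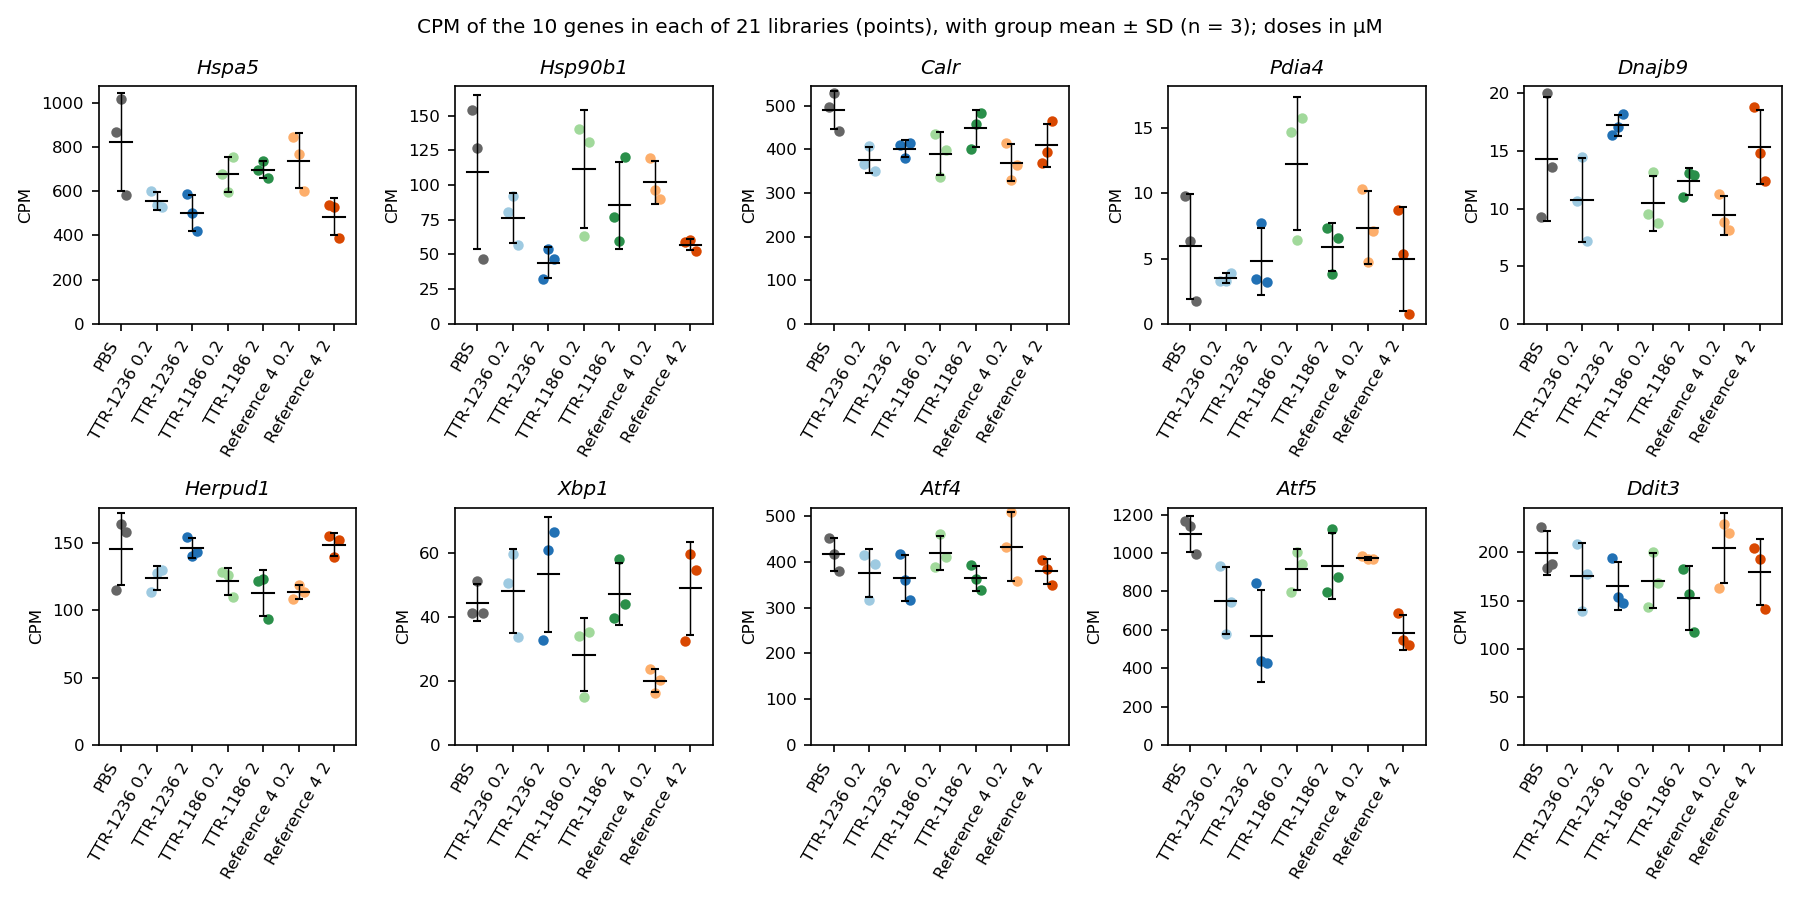
CPM of the 10 genes (vertical axes, each from 0) in the 7 groups (horizontal axes, doses in µM), with 1 point per library and the group mean ± SD (n = 3). Hspa5 and Atf5 are lowest with TTR-1236 and Reference 4 at 2 µM, Xbp1 is lowest with Reference 4 at 0.2 µM, and 1 PBS library is well below the other PBS libraries for Hspa5, Hsp90b1 and Pdia4.

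Hspa5 (ENSMUSG00000026864, plus strand of chromosome 2, 34771970 to 34777547 in mm10) encodes BiP, the main ER chaperone of the HSP70 family, which also holds the stress sensors inactive. The PBS libraries had 868, 1018 and 585 CPM, a mean of 824 ± 220 (SD, n = 3). With TTR-1236 the libraries had 603, 537 and 530 CPM at 0.2 µM and 587, 500 and 421 CPM at 2 µM. Every TTR-1236 library was below the 2 higher PBS libraries, while the lowest PBS library lay inside both groups. TTR-1186 gave 679, 598 and 755 CPM at 0.2 µM and 695, 737 and 661 CPM at 2 µM, all inside the PBS range. Reference 4 gave 846, 769 and 603 CPM at 0.2 µM and 537, 529 and 388 CPM at 2 µM. Only the 2 µM group of Reference 4 lay wholly below PBS, which 10.8% of all genes did in that comparison.

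The group means of Hspa5 ran from 485 ± 83.8 CPM with Reference 4 at 2 µM and 502 ± 83.0 CPM with TTR-1236 at 2 µM, through 557 ± 40.1 with TTR-1236 at 0.2 µM, to 677 ± 78.7 and 698 ± 38.1 with TTR-1186, 739 ± 124 with Reference 4 at 0.2 µM and PBS. Neighbours in this order overlapped in each case. The fall against PBS was -0.69 ± 0.18 with TTR-1236 at 2 µM (adjusted p = 0.0267 in limma), a mean of 61.0% of PBS. With Reference 4 at 2 µM it was -0.74 ± 0.18 (adjusted p = 0.0328 in limma), a mean of 58.8% of PBS. At 0.2 µM the differences were -0.53 with TTR-1236 (95% interval -0.90 to -0.16, adjusted p = 0.54 in limma), -0.25 with TTR-1186 and -0.13 with Reference 4.

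The Hspa5 calls were lost in most fits with 1 library left out. For TTR-1236 at 2 µM the limma adjusted p was 0.0675 and 0.153 without that group's replicates 2 and 3, 0.130 and 0.159 without PBS replicates 1 and 2, and 0.00103 without PBS replicate 3, and it was 0.142 in a fit of only the 6 libraries compared. For Reference 4 at 2 µM it was 0.0515, 0.0541 and 0.178 without that group's replicates 1, 2 and 3, 0.158 and 0.162 without PBS replicates 1 and 2, and 0.00115 without PBS replicate 3, and it was 0.106 in a fit of only the 6 libraries compared. For TTR-1236 at 0.2 µM, which was not called, the difference was -0.76 without PBS replicate 3 (adjusted p = 0.0405 in limma), a fit in which 63 of all genes were called in place of 2.

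Atf5 (ENSMUSG00000038539, minus strand of chromosome 7, 44812256 to 44816658) encodes a basic leucine zipper transcription factor whose translation, like that of ATF4, rises when eIF2α is phosphorylated, and which is abundant in liver. The PBS libraries had 1167, 1140 and 994 CPM, a mean of 1101 ± 93.0 (SD, n = 3). With TTR-1236 the libraries had 933, 581 and 744 CPM at 0.2 µM and 845, 436 and 428 CPM at 2 µM. All 6 were below all PBS libraries, and replicate 1 was the highest of its group at both doses. TTR-1186 gave 799, 1004 and 941 CPM at 0.2 µM and 796, 1123 and 874 CPM at 2 µM. These overlapped PBS. Reference 4 gave 982, 970 and 967 CPM at 0.2 µM and 688, 545 and 519 CPM at 2 µM, both groups below PBS with no overlap. Libraries all below PBS were seen for 5.41% of all genes with TTR-1236 at 0.2 µM and 11.9% at 2 µM, and for 10.5% and 10.8% with Reference 4.

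The means of Atf5 were 570 ± 238 CPM with TTR-1236 at 2 µM, 584 ± 90.9 with Reference 4 at 2 µM, 753 ± 176 with TTR-1236 at 0.2 µM, 915 ± 105 and 931 ± 171 with TTR-1186, and 973 ± 8.06 with Reference 4 at 0.2 µM. Neighbours in this order overlapped up to Reference 4 at 0.2 µM, which did not overlap PBS. The difference of Atf5 from PBS was -1.02 ± 0.21 with TTR-1236 at 2 µM (adjusted p = 0.00963 in limma), a mean of 51.8% of PBS. With Reference 4 at 2 µM it was -0.92 ± 0.21 (adjusted p = 0.0239 in limma), a mean of 53.1% of PBS. At 0.2 µM the differences were -0.57 with TTR-1236 (SE 0.21, adjusted p = 0.578 in limma), -0.27 with TTR-1186 and -0.17 with Reference 4, and with TTR-1186 at 2 µM it was -0.25.

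For TTR-1236 at 2 µM the limma adjusted p of Atf5 was 0.0776 without that group's replicate 3 0.0673 and 0.0558 without PBS replicates 1 and 2, and 0.0767 in a fit of only the 6 libraries compared. For Reference 4 at 2 µM it was 0.0778 and 0.113 without that group's replicates 2 and 3 and 0.123 and 0.104 without PBS replicates 1 and 2. The exons of Atf5 share 82 bases with Nup62 on the other strand, away from the 3′ end of Atf5, and Nup62 stood at 27.9 to 59.4 CPM.

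**Figure D2:**
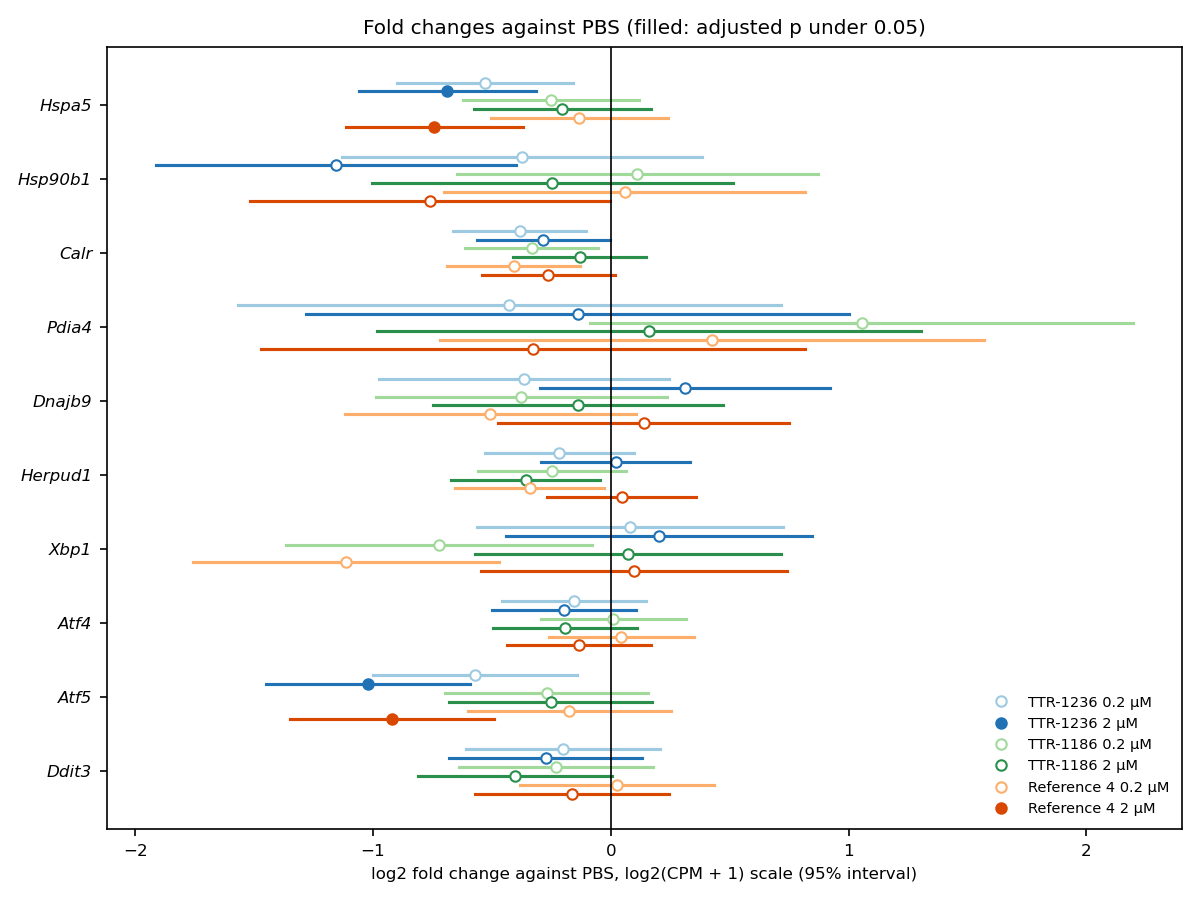
Log2 fold change of each gene against PBS on the log2(CPM + 1) scale, with 95% intervals from limma, for 3 agents at 2 doses. Filled points, which mark an adjusted p under 0.05, appear for Hspa5 and Atf5 alone, with TTR-1236 and Reference 4 at 2 µM.

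Several library measures differed in mean from PBS in the groups in which Hspa5 and Atf5 fell. The mitochondrial ribosomal RNA share was lower there, as given above. Kupffer cell markers, of which 2 of 7 were measured, summed to 102 to 157 CPM with TTR-1236 at 2 µM and 128 to 157 CPM with Reference 4 at 2 µM, against 79.6 to 101 CPM in PBS. The sum was also 102 to 133 CPM with TTR-1236 at 0.2 µM, where neither gene was called. Its highest library, at 184 CPM, was of Reference 4 at 0.2 µM. In PBS, Cd68 averaged 81.6 CPM and Csf1r, the other measured marker, 9.56 CPM. Cholangiocyte markers, of which 2 of 4 were measured, summed to 42.8 to 47.2 and 44.5 to 48.2 CPM, against 29.1 to 42.3 CPM in PBS. Over all 21 libraries the 2 sums ran from 77.2 to 184 CPM and from 24.5 to 48.2 CPM, and the markers of these lists that were not measured are not analysed here. Stab2 alone of 5 endothelial markers (0.179 to 10.6 CPM over all libraries) and Acta2 alone of 5 stellate cell markers (3.34 to 26.8 CPM) were measured. Stab2 averaged 8.50 CPM with TTR-1236 and 5.57 CPM with Reference 4 at 2 µM, against 9.09 CPM in PBS. Acta2 averaged 10.6 and 7.87 CPM, against 6.07 CPM in PBS. Hepatocyte marker sums averaged 18695 CPM with TTR-1236 and 20031 CPM with Reference 4 at 2 µM, against 17261 CPM in PBS. Single hepatocyte markers went both ways: over the 7 groups Fgb had its highest mean in PBS (1322 CPM) and Apoc3 its lowest (995 CPM). PBS replicate 3, with 0.797% mitochondrial ribosomal RNA, had 585 CPM of Hspa5, close to the 587 CPM of the highest TTR-1236 library at 2 µM, but 994 CPM of Atf5. TTR-1186 2 µM replicate 2, the other library that stood apart, had 0.622%, 737 CPM of Hspa5 and 1123 CPM of Atf5. The part of these measures in the falls was not tested.

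**Figure D3:**
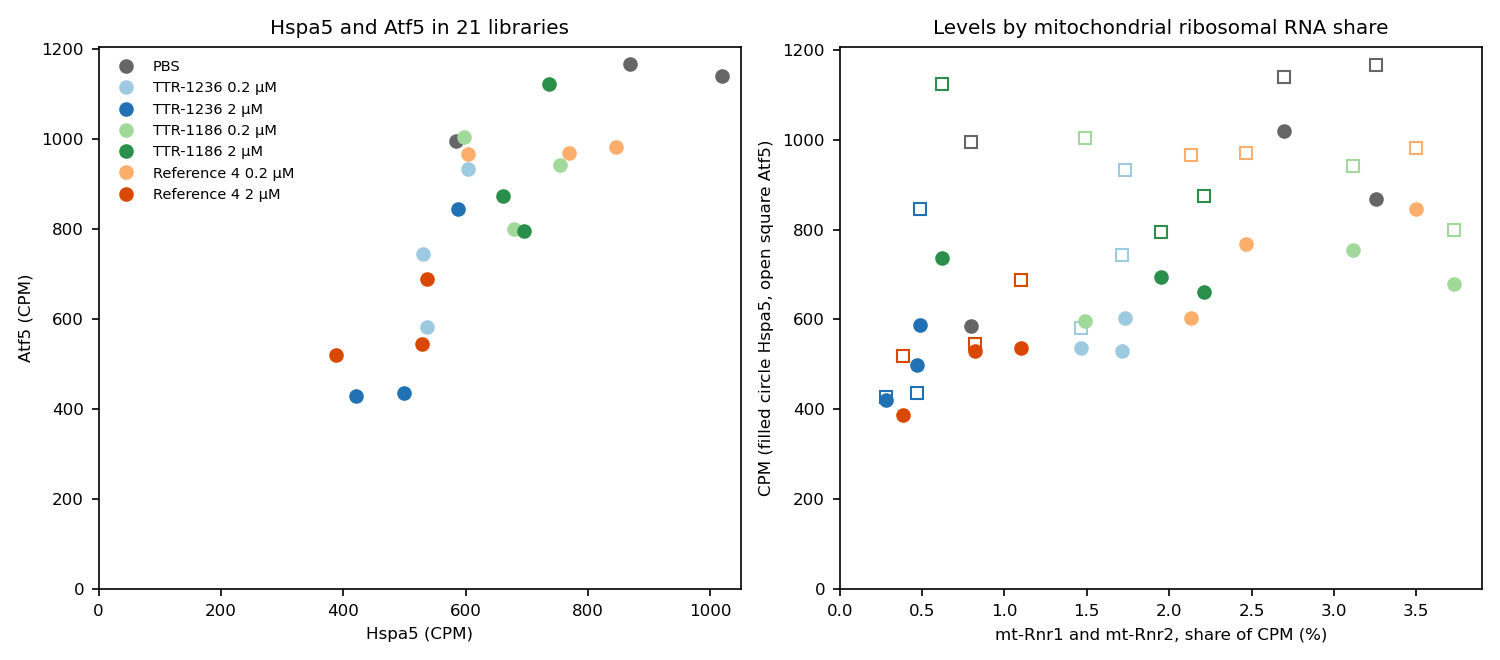
Left, CPM of Hspa5 (horizontal) and Atf5 (vertical) in each of the 21 libraries, and right, both genes (vertical) against the share of CPM taken by mt-Rnr1 and mt-Rnr2 in percent (horizontal), coloured by group. The 6 libraries of TTR-1236 and Reference 4 at 2 µM lie at 388 to 587 CPM of Hspa5 and at shares of 0.278% to 1.10%, and a PBS library at 0.797% has 585 CPM of Hspa5.

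Hsp90b1 (ENSMUSG00000020048, minus strand of chromosome 10, 86690209 to 86705509) encodes GRP94, the HSP90 chaperone of the ER. Its PBS libraries had 154, 127 and 46.9 CPM, a mean of 109 ± 55.6 (SD, n = 3). The lowest group was TTR-1236 at 2 µM, with 31.9, 53.7 and 46.5 CPM, and Reference 4 at 2 µM had 58.6, 60.4 and 52.3 CPM. Both groups lay below PBS replicates 1 and 2. Against PBS replicate 3, the TTR-1236 libraries lay on both sides and every Reference 4 library lay above. The remaining group means were 76.3 to 112 CPM. The difference from PBS was -1.16 ± 0.36 with TTR-1236 at 2 µM and missed the threshold (95% interval -1.91 to -0.40, adjusted p = 0.0618 in limma), but it passed in edgeR with TMM factors (adjusted p = 0.0305), in edgeR with DESeq2 size factors (0.0338), in DESeq2 (0.00433) and in limma on CPM rescaled with TMM factors (0.0454). Without PBS replicate 3 it was -1.67 (adjusted p = 0.00105 in limma), and for Reference 4 at 2 µM it was -1.28 (adjusted p = 0.00962) in place of -0.76 (adjusted p = 0.246).

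Calr (ENSMUSG00000003814, chromosome 8) encodes calreticulin, the lectin chaperone that binds glycoproteins and calcium. It had 499, 531 and 443 CPM in PBS, the highest group mean (491 ± 44.6, SD, n = 3), and the treated means ran from 370 ± 43.3 with Reference 4 at 0.2 µM to 448 ± 42.8 with TTR-1186 at 2 µM. All its libraries were below PBS in 4 of the 6 treated groups, namely all groups at 0.2 µM and TTR-1236 at 2 µM. Such separation was seen for 5.41%, 9.6% and 10.5% of all genes with TTR-1236, TTR-1186 and Reference 4 at 0.2 µM. With TTR-1236 at 2 µM it was seen for 11.9%. The groups share their PBS libraries, and the share of genes separated in 4 groups at once was not counted. The differences from PBS were between -0.13 and -0.41, and 0 of 6 were called (lowest adjusted p = 0.166 in limma, with Reference 4 at 0.2 µM).

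Pdia4 and Dnajb9 were measured at low levels. Pdia4 (ENSMUSG00000025823, chromosome 6) encodes ERp72, a disulfide isomerase, and spanned 0.779 to 15.8 CPM (23 to 339 reads), with 9.77, 6.33 and 1.75 CPM in PBS. Its highest group was TTR-1186 at 0.2 µM, with 14.7, 6.39 and 15.8 CPM, a difference of 1.05 ± 0.55 from PBS that was not called (95% interval -0.09 to 2.20, adjusted p = 0.541 in limma). Dnajb9 (ENSMUSG00000014905, chromosome 12) encodes ERdj4, a J-domain partner of BiP, and spanned 7.19 to 20.0 CPM. It stood at 9.28, 20.0 and 13.6 CPM in PBS and at 16.4, 17.1 and 18.2 CPM with TTR-1236 at 2 µM, inside the PBS range. Differences of Dnajb9 from PBS lay between -0.51 and 0.31, and 0 were called.

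Herpud1 (ENSMUSG00000031770, chromosome 8) encodes a membrane protein of the ER-associated degradation complex that retrotranslocates misfolded proteins. At 2 µM, TTR-1236 and Reference 4 gave means of 146 ± 7.59 and 149 ± 8.28 CPM against 146 ± 26.6 CPM in PBS (n = 3 each). The 95% intervals of these differences were -0.29 to 0.33 and -0.27 to 0.36. The lowest mean was 113 ± 16.9 CPM with TTR-1186 at 2 µM, a difference of -0.36 ± 0.15 that was not called (adjusted p = 0.471 in limma).

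Xbp1 (ENSMUSG00000020484, plus strand of chromosome 11, 5520659 to 5525893) encodes the transcription factor made active when IRE1 splices its mRNA. A gene count does not separate the spliced from the unspliced form, so the values are of both together. The PBS libraries had 41.3, 51.3 and 41.2 CPM. With TTR-1236 the libraries had 50.8, 59.8 and 34.0 CPM at 0.2 µM and 33.0, 61.0 and 66.6 CPM at 2 µM, on both sides of PBS. TTR-1186 gave 34.3, 15.2 and 35.5 CPM at 0.2 µM and 39.7, 58.2 and 44.1 CPM at 2 µM. Reference 4 gave 23.7, 16.5 and 20.3 CPM at 0.2 µM and 32.5, 59.9 and 54.9 CPM at 2 µM. The 0.2 µM groups of TTR-1186 and Reference 4 lay wholly below PBS, as did 9.6% and 10.5% of all genes, and the other 4 overlapped it.

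In order, the Xbp1 means were 20.2 ± 3.62 CPM with Reference 4 at 0.2 µM, 28.3 ± 11.4 with TTR-1186 at 0.2 µM, 44.6 ± 5.83 in PBS, 47.3 ± 9.65 with TTR-1186 at 2 µM, 48.2 ± 13.1 with TTR-1236 at 0.2 µM, 49.1 ± 14.6 with Reference 4 at 2 µM and 53.5 ± 18.0 with TTR-1236 at 2 µM. Neighbours overlapped except TTR-1186 at 0.2 µM and PBS. Against PBS the difference with Reference 4 at 0.2 µM was -1.11 ± 0.31, which was not called (95% interval -1.76 to -0.47, adjusted p = 0.115 in limma), and with TTR-1186 at 0.2 µM it was -0.72 ± 0.31 (adjusted p = 0.444). At 2 µM the 3 differences were between 0.07 and 0.20.

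Atf4 (ENSMUSG00000042406, plus strand of chromosome 15, 80255184 to 80257541) encodes the main effector of the integrated stress response and is regulated largely in translation, which mRNA counts do not show. The PBS libraries had 452, 417 and 380 CPM. TTR-1236 gave 415, 315 and 394 CPM at 0.2 µM and 416, 360 and 317 CPM at 2 µM. TTR-1186 gave 387, 460 and 411 CPM at 0.2 µM and 392, 361 and 338 CPM at 2 µM. Each of these groups overlapped PBS. Reference 4 gave 432, 508 and 357 CPM at 0.2 µM and 403, 384 and 348 CPM at 2 µM, also overlapping. The differences from PBS lay between -0.20 and 0.04, 0 of 6 were called, and their 95% intervals together ran from -0.50 to 0.35.

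Ddit3 (ENSMUSG00000025408, plus strand of chromosome 10, 127290774 to 127296288) encodes CHOP, the factor linked to cell death in prolonged ER stress. Its last 68 bases (127296221 to 127296288) overlap an exon of Mars, the cytosolic methionyl-tRNA synthetase gene, on the other strand. Reads of Ddit3 were 0.900 to 1.005 times those of Mars in the 21 libraries (median 0.975), and the strand setting of the authors' counting is not given in the sources used here, so the values of Ddit3 may be those of both genes and are uncertain. With that limit, PBS had 226, 184 and 188 CPM. TTR-1236 gave 208, 139 and 178 CPM at 0.2 µM and 194, 154 and 147 CPM at 2 µM. TTR-1186 gave 144, 200 and 168 CPM at 0.2 µM and 183, 156 and 117 CPM at 2 µM, the latter just below all PBS libraries, as were 5.85% of all genes. Reference 4 gave 163, 229 and 221 CPM at 0.2 µM and 204, 193 and 141 CPM at 2 µM. The differences from PBS lay between -0.40 and 0.02, and 0 of 6 were called (lowest adjusted p = 0.43 in limma).

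Averaged over the 6 treated groups, 0 of the 10 genes were called against PBS, where 0.0725% of all genes were, and 0 were called by edgeR or DESeq2. At an unadjusted p under 0.05 limma had 3, namely Hspa5 (-0.42, adjusted p = 0.184), Atf5 (-0.53, adjusted p = 0.14) and Calr (-0.30, adjusted p = 0.223). Such a p was reached by 1289 of all 9657 genes. Without PBS replicate 3, Hspa5 (adjusted p = 0.0107 in limma) and Hsp90b1 (0.0335) passed, and without TTR-1236 2 µM replicate 1, Atf5 did (0.0440). In these fits 639 and 22 of the 9657 genes were called, in place of 7. The median difference of the 10 genes was -0.22, beside -0.06 for all genes.

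Agents were compared with each other at the same dose in 6 pairs, and 0 of the 10 genes were called in any of them by limma. At 0.2 µM, 0% of all genes were called in the 3 pairs by limma, and at 2 µM 0% between TTR-1236 and Reference 4, 0.373% between TTR-1186 and Reference 4 and 0.342% between TTR-1236 and TTR-1186. At an unadjusted p under 0.05 limma had 2, 0 and 2 of the 10 genes for TTR-1236 against Reference 4, TTR-1186 against Reference 4 and TTR-1236 against TTR-1186 at 0.2 µM, and 0, 3 and 4 at 2 µM. In the same order, 1351, 475 and 685 of all 9657 genes had such a p at 0.2 µM, and 1526 was the last of 288, 1196 and 1526 at 2 µM. Apart from Xbp1, given below, edgeR and DESeq2 also called 0 in these pairs. At 2 µM TTR-1236 and Reference 4 differed by 0.05 for Hspa5 (95% interval -0.32 to 0.43) and by -0.10 for Atf5 (-0.53 to 0.33). TTR-1186 was above Reference 4 with no overlap for Hspa5 (0.54, interval 0.17 to 0.91, adjusted p = 0.222) and Atf5 (0.67, interval 0.24 to 1.09, adjusted p = 0.185), as were 9.81% of all genes, while Herpud1 was below without overlap (-0.40, adjusted p = 0.273), as were 8.53%. TTR-1236 was below TTR-1186 for Hspa5 (-0.48, interval -0.86 to -0.11, adjusted p = 0.197) and Atf5 (-0.77, interval -1.20 to -0.34, adjusted p = 0.0879). In this pair 2 of the 10 genes, Hspa5 and Hsp90b1, lay lower with no overlap, as did 11.1% of all genes. Another 2, Herpud1 and Dnajb9, lay higher with no overlap, as did 6.89%, while the Atf5 groups overlapped. At 0.2 µM, 3 lay lower and 1 higher with TTR-1236 than with Reference 4 (9.19% and 15.1% of all genes), and 1 lay lower with TTR-1236 than with TTR-1186 (4.95%).

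For 2 of these pairs the call turned on the setting. Without TTR-1236 2 µM replicate 1 the Atf5 difference between TTR-1236 and TTR-1186 was -1.09 and passed (adjusted p = 0.00400 in limma), with 170 of all genes called in place of 33. Xbp1 was higher with TTR-1236 than with Reference 4 at 0.2 µM in every library, by 1.19 ± 0.31 (95% interval 0.55 to 1.84, adjusted p = 0.0782 in limma). It was called by DESeq2 (adjusted p = 0.0128) and by limma on only the libraries compared (0.00579), and not by edgeR (0.0795 with TMM factors). The first 2 settings called many genes in this pair, 238 and 499 of the 9657, where limma on all libraries and edgeR called 0.

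Between doses, Reference 4 was the agent with calls: at 2 µM against 0.2 µM, Hspa5 and Atf5 fell and Xbp1 rose, 3 of the 10 genes where 12.8% of all genes were called (6.05% lower and 6.78% higher). Hspa5 fell by 0.61 ± 0.18 (adjusted p = 0.0282 in limma), and Atf5 fell by 0.75 ± 0.21 (adjusted p = 0.0226). Xbp1 rose by 1.21 ± 0.31 (adjusted p = 0.0155), from 20.2 to 49.1 CPM. For each, no library of one dose overlapped the other, as was so for 16.8% of all genes downward and 17.1% upward. Herpud1 was higher by 0.39 ± 0.15 (adjusted p = 0.0922) and Dnajb9 by 0.64 ± 0.30 (adjusted p = 0.153), and Hsp90b1 was lower by -0.82 ± 0.36 (adjusted p = 0.145), all without overlap and none called. Hsp90b1 was called by DESeq2 (adjusted p = 0.0423) and by limma on only the 6 libraries compared (0.00357).

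These dose calls too were lost in some fits with 1 library left out, which also leave fewer libraries to test. In those fits the difference ran from -0.75 to -0.46 for Hspa5, -0.87 to -0.67 for Atf5 and 1.05 to 1.48 for Xbp1. The limma adjusted p of Hspa5 was 0.119 and 0.0914 without Reference 4 0.2 µM replicates 1 and 2 and 0.188 without Reference 4 2 µM replicate 3. For Atf5, leaving out replicate 1 or 2 of the 0.2 µM group gave 0.0614 or 0.0637, and leaving out replicate 2 or 3 of the 2 µM group gave 0.0761 or 0.117. For Xbp1, leaving out replicate 2 of the 0.2 µM group gave 0.0671, and leaving out replicate 2 or 3 of the 2 µM group gave 0.0717 or 0.0886.

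**Figure D4:**
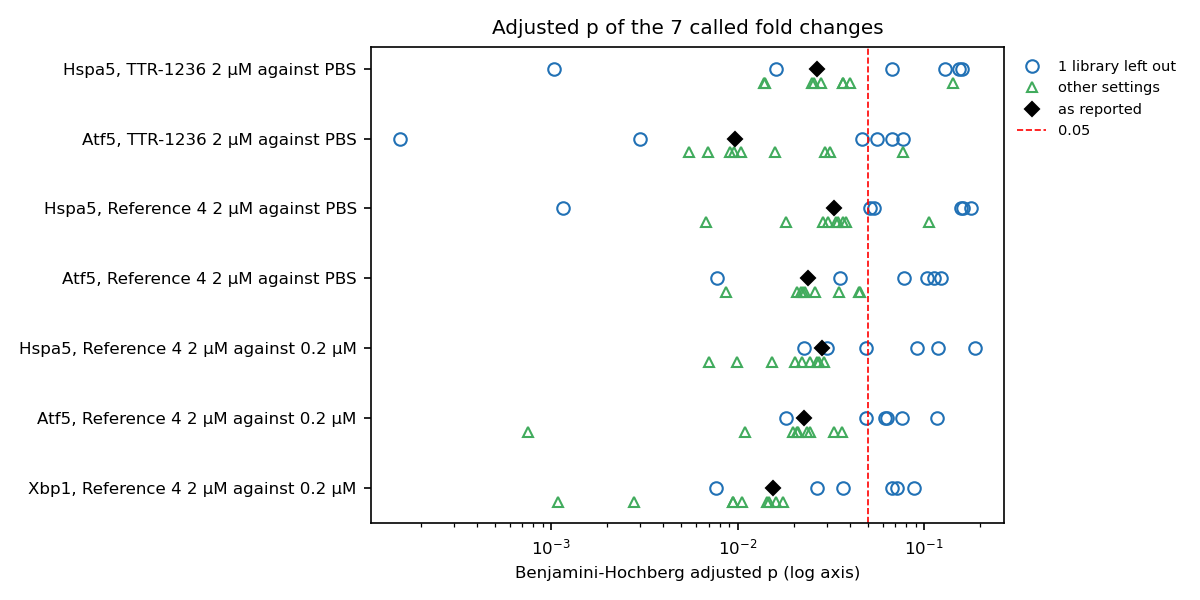
Benjamini-Hochberg adjusted p (horizontal, log axis) of the 7 called differences as reported, with each library of the comparison left out in turn and under 9 other settings. Each of the 7 has left-out libraries past the 0.05 line, and the differences of Hspa5 with TTR-1236 and Reference 4 at 2 µM and of Atf5 with TTR-1236 at 2 µM also have 1 other setting past it.

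With TTR-1236, 0 of the 10 genes were called between doses, where 0.135% of all genes were, and with TTR-1186 0 were, where 0% of all genes were. At an unadjusted p under 0.05 limma had 3 and 1 of them, beside 1112 and 1415 of all 9657 genes, and edgeR and DESeq2 called 0 of the 10. With TTR-1236 Atf5 differed by -0.45 (95% interval -0.88 to -0.02), which passed without TTR-1236 2 µM replicate 1 (-0.77, adjusted p = 0.0385 in limma), with 97 of all genes called in place of 13. The TTR-1236 doses did not overlap for 3 genes, 1 lower and 2 higher at 2 µM (14.9% and 6.42% of all genes). With TTR-1186 Xbp1 was higher at 2 µM in every library, by 0.79 (interval 0.15 to 1.44, adjusted p = 0.252), as were 14% of all genes. Whether the dose difference itself differs between agents was tested in 3 interactions, and limma called 0 of the 10 genes and 0% of all genes. At an unadjusted p under 0.05 it had 1 of the 10 for TTR-1236 less Reference 4, 3 for TTR-1186 less Reference 4 and 0 for TTR-1236 less TTR-1186, and edgeR and DESeq2 called 0. In that order, 914, 874 and 658 of all 9657 genes had such a p. The dose difference of Xbp1 was lower with TTR-1236 than with Reference 4 by -1.09 (interval -2.00 to -0.18, adjusted p = 0.404 in limma). With TTR-1186, that of Hspa5 was higher than with Reference 4 by 0.66 (interval 0.13 to 1.18) and that of Atf5 by 0.76 (0.16 to 1.37). Both had an adjusted p of 0.4745 in limma. For Hspa5 and Atf5 with TTR-1236, and for Xbp1 with TTR-1186, the interval against Reference 4 held 0. As 0 of these were called, the calls with Reference 4 are not shown to be particular to it.

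Other genes of the pathway were taken from 6 lists, with 101 measured genes besides the 10. Against PBS, 1 of the 101 passed with TTR-1236 at 2 µM, where 6.33% of all genes did, and 0 in the other 5 comparisons. The gene was Nars, the asparaginyl-tRNA synthetase, which is a known ATF4 target: it fell by 0.48 ± 0.13 with TTR-1236 at 2 µM (234 ± 29.5 against 327 ± 27.9 CPM, adjusted p = 0.0358 in limma). This call was lost in 4 of the 6 fits with 1 library left out, namely TTR-1236 2 µM replicates 2 and 3 and PBS replicates 1 and 2, and without PBS replicate 3 the count was 13 of the 101, beside 1588 of the 9657 genes. The 101 genes split into 45 higher and 56 lower there, with a median of -0.09 beside -0.07 for all genes. With Reference 4 at 2 µM they split into 47 higher and 54 lower, with a median of -0.04 beside -0.03, and 0 were called by limma and 1 by DESeq2, and without PBS replicate 3 limma called 6, beside 1272 of all genes. In these 2 comparisons, then, 0 and 0 of 21 further chaperones and folding enzymes and 0 and 0 of 15 degradation genes passed, among them Canx, calnexin, at -0.39 and -0.37 (adjusted p = 0.111 and 0.15).

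Between the doses of Reference 4, 16 of the 101 genes passed, 11 higher and 5 lower, which is near the 12.8% of all genes. Called or not, 58 of the 101 were higher and 43 lower, with a median of 0.09 beside 0.03 for all genes. Chaperones and folding enzymes split into 13 higher and 8 lower, and translocon genes into 10 and 6. Degradation genes split into 6 higher and 9 lower (median -0.11), sensors and kinases into 4 and 7, and amino acid and ATF4-linked genes into 22 and 13. Among chaperones and folding enzymes 3 of 21 rose and 0 fell: the disulfide isomerases Pdia6 (0.95 ± 0.27, adjusted p = 0.0235) and P4hb (0.53 ± 0.16, adjusted p = 0.0299), and Manf, a secreted ER stress-inducible factor (1.36 ± 0.38, adjusted p = 0.025). Among degradation genes 2 of 15 rose, the ubiquitin-conjugating enzyme gene Ube2g2 (0.96) and Edem2 (0.77), which marks misfolded glycoproteins. Of translocon and signal peptide genes 3 of 16 rose, Sec61b (1.00), Spcs1 (0.61) and Tram1 (0.75). Among sensors and kinases 1 of 11 rose, Eif2s1, which encodes eIF2α (0.88), and 1 fell, the sensor gene Atf6 (-1.19 ± 0.34, 6.94 ± 0.387 against 17.6 ± 5.62 CPM, adjusted p = 0.026).

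Of the 11 higher genes, 5 are given here whose 0.2 µM mean lay below PBS and whose 2 µM mean lay near or above it. They are examples from genes called for being lower at 0.2 µM than at 2 µM, so a low 0.2 µM mean is partly built in. The 5 were picked for this order, so they do not show how common it is. The other higher genes are not set against PBS here, and the share of all genes with this order was not counted. Sec61b had 40.1 CPM in PBS, 19.5 at 0.2 µM and 39.8 at 2 µM, and Manf had 33.0, 13.9 and 36.2 CPM in the same order. Tram1 had 95.4, 57.9 and 99.9 CPM, Eif2s1 had 35.7, 20.5 and 38.8 CPM, and Ube2g2 had 32.1, 21.7 and 43.8 CPM. Against PBS 0 of these 5 genes were called with Reference 4 at either dose (at 0.2 µM, the lowest adjusted p in limma was 0.0566, for Sec61b). Xbp1, which was also called higher between these doses, had the same order, with 44.6, 20.2 and 49.1 CPM.

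In the amino acid and ATF4-linked list 2 of 35 rose and 4 fell between the doses of Reference 4. The aminoacyl-tRNA synthetase genes Eprs (-1.25 ± 0.36), Sars (-0.96 ± 0.20, adjusted p = 0.00504) and Nars (-0.48 ± 0.13) fell, as did Mthfd2, of mitochondrial folate metabolism (-0.82). Phgdh, the first enzyme of serine synthesis (0.62), and Eif4ebp1, a translation repressor (0.38), rose. Of 3 measured cell death genes linked to CHOP, 0 passed (Tnfrsf10b, 0.97, adjusted p = 0.0527). The mitochondrial ribosomal RNA share differed between these doses too (2.13% to 3.50% at 0.2 µM, 0.383% to 1.10% at 2 µM), and its part was not tested. With replicate 1 or 2 of the 0.2 µM group left out the count of 16 became 9 or 3, and with replicate 2 or 3 of the 2 µM group left out it became 5 or 0. Over all genes the count of 1239 became 691 or 549 and 631 or 208 in these fits.

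**Figure D5:**
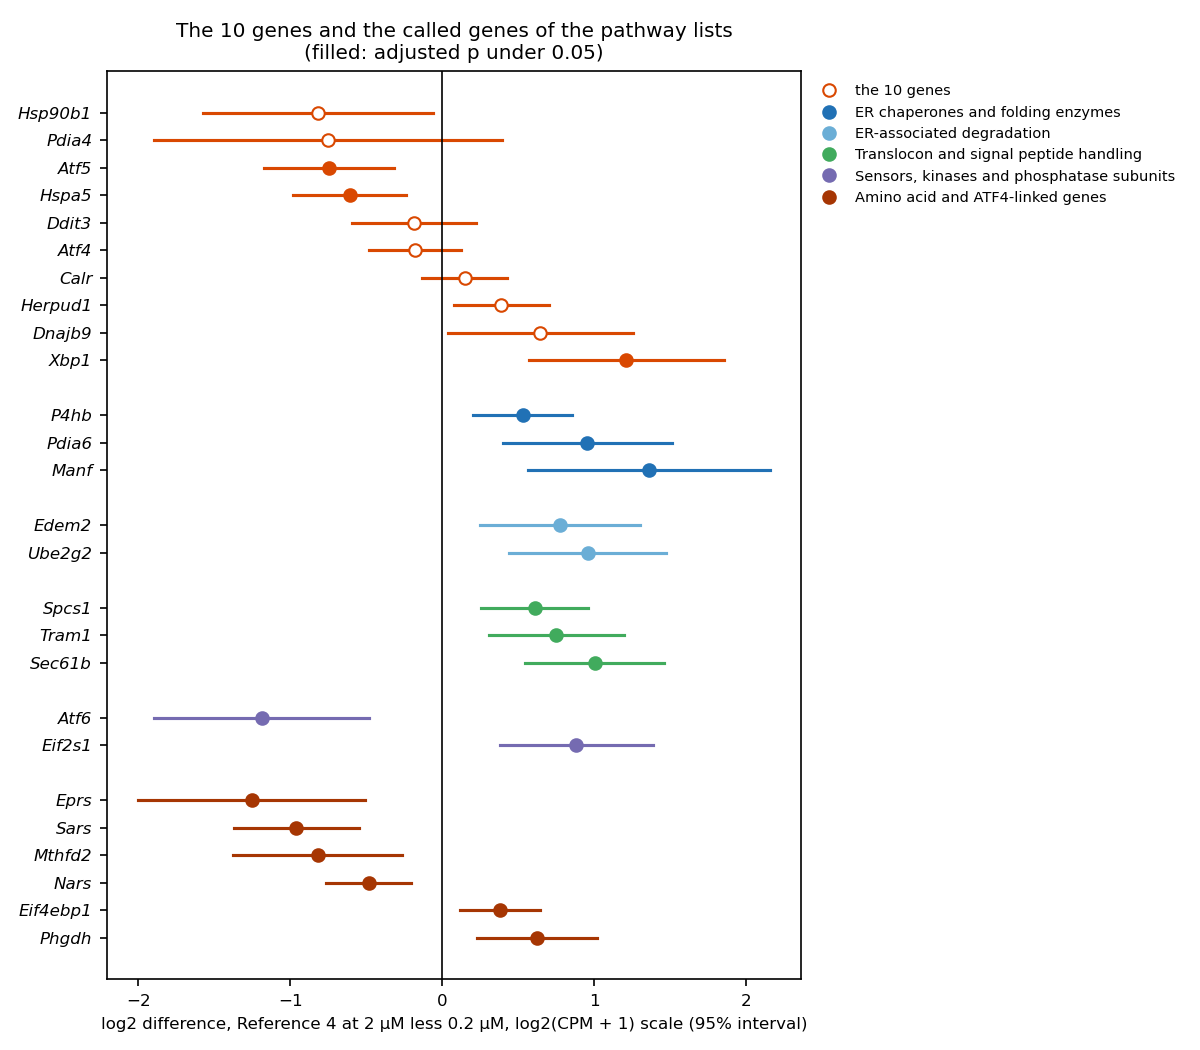
Log2 difference of Reference 4 at 2 µM from 0.2 µM (horizontal, log2(CPM + 1) scale, 95% intervals from limma) for the 10 genes and for the 16 called genes of the other pathway lists, coloured by list. Filled points have an adjusted p under 0.05, and the called chaperone, degradation and translocon genes lie above 0 while Hspa5, Atf5, Atf6 and 4 amino acid genes lie below it. List genes that were not called are not drawn, and of all 15 degradation genes 6 were higher and 9 lower at 2 µM.

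Across the 21 libraries Hspa5 and Atf5 had a Pearson r of 0.82 on log2(CPM + 1), and 0.487 after the group means were taken out. Within the members, Hspa5 and Hsp90b1 had 0.705, Atf4 and Ddit3 0.712, and Xbp1 and Atf4 -0.667. After the group means were taken out these were 0.482, 0.686 and -0.593, and the values of Ddit3 are uncertain as given above. These are descriptions over libraries that fall into groups and differ in depth. Among 7426 genes averaging 10 CPM or more, the 5 whose pattern was most like that of Hspa5 were Hsp90ab1 (r = 0.918), Rock2 (0.913), Slc16a1 (0.899), Mtdh (0.888) and Csnk1a1 (0.888). For Atf5 the first 3 were Psmd4 (0.958), Tkt (0.943) and Arf5 (0.937). Of the other members, Atf5 stood at place 106 in likeness to Hspa5, and Hspa5 at place 24 in likeness to Atf5.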

How the data were processed

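QuantSeq 3′ mRNA libraries of 21 hepatocyte samples in 7 groups of 3 were used. The deposited values are CPM per Ensembl gene, made by the authors; per the submitters' processing notes the tools were cutadapt 1.15, HISAT2 2.1.0 and featureCounts, with mm10. The sources used here do not give their settings, strand or annotation. CPM sums to 1000000 in each library over the 9657 genes, whose lowest mean is 1.22 CPM. Whole reads were recovered for 100% of values within 0.001 reads, and libraries held 14158740 to 37410773 reads, which limits the precision of genes with few reads.

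Groups came from the labels. limma 3.58.1 (R 4.3.3) was fitted to log2(CPM + 1) of all libraries with 7 group means and eBayes with trend and robust, and p-values were adjusted by Benjamini-Hochberg across the 9657 genes of each comparison (called under 0.05). The script was tested on simulated data. Alternatives were other pseudocounts (0.5, 5), leaving out genes averaging under 10 CPM (7430 kept), CPM rescaled with TMM factors, edgeR 4.0.16 quasi-likelihood tests and DESeq2 1.42.0 on the recovered reads, only the libraries compared, a replicate block, and each library left out in turn. In each group, replicate libraries differed by more than sampling noise. All 10 members were described, with values per library for called members and for Xbp1, Atf4 and Ddit3. Up to 4 called genes per pathway list with the lowest p were named, and Mthfd2 and Eif4ebp1, beyond that rule, were named after their values were seen. The members, lists and tests were chosen with earlier results of these data known. Promoter sequences and starts are from RefSeq (GRCm38.p6).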

Additional observations from a re-analysis of the deposited data

How the results depend on the processing

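Of the 7 called differences, 0 changed sign under any alternative, but each lost its call in at least 3 of the fits with 1 library left out. With 1 library left out, the number of the 10 genes called ran from 0 to 3 against PBS for TTR-1236 at 2 µM (2 if none is left out), from 0 to 3 for Reference 4 at 2 µM against PBS (2) and from 0 to 3 between the doses of Reference 4 (3). It ran from 0 to 1 for TTR-1236 at 0.2 µM against PBS, between the doses of TTR-1236 and between TTR-1236 and TTR-1186 at 2 µM, and from 0 to 2 for the mean of the treated groups, each of which had 0. In fits of only the libraries compared, 0 were called for TTR-1236 at 2 µM against PBS, 1 for Reference 4 at 2 µM against PBS and 1 for TTR-1236 against Reference 4 at 0.2 µM, where DESeq2 also called 1. The causes were not tested. Of 190 pairs of gene and comparison, 10 were called only under an alternative and 173 never, of which 62 changed sign under an alternative (largest reported size 0.49).

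With the replicate block, 2, 2 and 3 of the 10 genes were called in the 3 comparisons with calls, and 0 in the others, as without it. Samples with the same number had correlations of their deviations from -0.392 to 0.289 (median 0.018, 18 of 63 over 0.1). For samples with different numbers these ran from -0.367 to 0.511 (median -0.018, 35 of 126 over 0.1). With 3 libraries per group, such correlations cannot decide whether the numbers pair the samples. Over all genes, TTR-1236 at 2 µM against PBS had 611 calls, 1056 with DESeq2 and 22 in a fit of only the libraries compared. Reference 4 at 2 µM against PBS had 217, 728 and 40 in the same order, Reference 4 at 0.2 µM against PBS 16, 88 and 2, and the doses of TTR-1236 13, 118 and 190, with 44 under the block. TTR-1236 against Reference 4 at 0.2 µM had 0, 238 and 499. The fit of only the libraries compared was not run for the mean of the treated groups, where it is the full fit. Pdia4, with 23 to 339 reads, is limited by depth.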
